A study of Homo sapiens with 17 samples.

Results

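The replication-dependent histone genes are the clustered genes that supply histones H1, H2A, H2B, H3 and H4. They were taken as all genes whose GENCODE 29 symbol starts with HIST1H, HIST2H, HIST3H or HIST4H. Of 90 such symbols, 88 were matched to the 60662 genes of the count table, and HIST2H2BB and HIST2H3PS2 were not analysed here. The 88 genes comprised 8 H1, 23 H2A, 25 H2B, 16 H3 and 16 H4 genes, of which 70 are coding genes and 18 are annotated as pseudogenes. By symbol, 68 were HIST1 genes, 15 HIST2 genes and 4 HIST3 genes, and HIST4H4 stands alone. These names do not always give the position, since the pseudogenes HIST1H2APS6 and HIST1H2BPS3 lie on chromosome 13, and HIST2H2BA and HIST2H3DP1 lie apart from the other HIST2 genes of chromosome 1.

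A nucleosome wraps DNA around a core of histones H2A, H2B, H3 and H4, and the linker histone H1 binds where DNA enters and leaves that core. Replication-dependent histone mRNAs accumulate in S phase, when new DNA must be packaged, and are degraded when DNA synthesis stops. They are the known metazoan mRNAs that end in a conserved stem-loop instead of a poly(A) tail, and the stem-loop binding protein SLBP holds that structure through processing, translation and decay. Several members also make longer, polyadenylated transcripts, which differentiated cells use.

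All libraries came from Ishikawa cells, a human endometrial adenocarcinoma line used as a model of the endometrial epithelium, after 24 h of culture in medium with charcoal-stripped serum. The groups were 3 control cultures in medium alone, 3 vehicle control cultures (Vehicle Nap EtOH, 70% ethanol), 2 Nap only cultures, and 3 P4 treated cultures, which received Nap and progesterone (P4). The labels do not define Nap, and they name ethanol only for the vehicle control, so a difference between P4 treated and vehicle control cultures may include ethanol as well as P4, and these cannot be told apart. The sources give the P4 concentration in different ways, so none is stated. Another 6 libraries have titles that contradict the names of their count columns and entered no comparison. The labels call the cultures biological replicates, and all are of a single cell line.

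Total counts in the 11 assigned libraries ranged from 4999521 in vehicle control 1 to 19704493 in control 2, and each library held between 25664 and 115397 reads of histone genes. The 9 epithelial markers summed to between 1551 and 1622 CPM (counts scaled to library size after TMM normalisation) in the vehicle controls. After P4 they summed to between 1187 and 1316 CPM. Of these 9 markers, 5 were lower after P4, 2 were higher and 2 were not called. Over all genes tested, 26.5% were lower and 26.6% were higher. The median log2 fold change of the 9 markers was -0.35. EPCAM, a surface marker of epithelial cells, had 176 ± 8.2 CPM in the vehicle controls and 186 ± 10.6 CPM after P4 (SD, n = 3 each). The 7 leukocyte and endothelial markers summed to between 0.531 and 2.55 CPM in every culture. The 7 stromal fibroblast markers summed to between 287 and 304 CPM in the vehicle controls and between 79.1 and 133 CPM after P4. Most of that sum was the collagen gene COL1A2, and the part of these cells or genes in the histone results was not tested. In bulk RNA, fewer cells in S phase and less histone mRNA per cell cannot be told apart.

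The stem-loop was found in the GENCODE 29 transcript models of 35 members, which are 7 H2A, 14 H2B, 6 H3 and 8 H4 genes. Its absence from the other 53 models does not show that those mRNAs lack it, since a model may end too early. The arms of the stem-loop differed by class. All 8 H4 genes had a GGCCC arm paired with GGGCC, whereas 24 other members paired GGCTC with GAGCC, and the remaining 3 (HIST1H2AG, HIST2H2BC and HIST2H2BD) paired GGCTC with GGGCC. The sequences of 6 members described below are shown because this element separates these mRNAs from others, with the 16 bases of the stem-loop in capitals and 5 flanking bases on each side.
HIST1H2AC: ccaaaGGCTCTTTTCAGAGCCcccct
HIST1H2AG: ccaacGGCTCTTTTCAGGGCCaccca
HIST1H2BC: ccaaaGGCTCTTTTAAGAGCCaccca
HIST2H2BE: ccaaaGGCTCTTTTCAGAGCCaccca
HIST1H4B: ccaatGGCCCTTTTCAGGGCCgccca
HIST4H4: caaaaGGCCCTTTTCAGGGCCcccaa

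Promoters of 65 members were matched in RefSeq (GRCh38.p14), each from 250 bases before to 50 bases after the RefSeq start. Windows of genes that lie head to head overlap, so a motif between them can be counted for both. Searched on both strands, CCAAT was present in 100% of the H1, H2A, H2B and H3 promoters, in 23.1% of the H4 promoters, and in 34.6% of all 35116 promoters. The octamer ATTTGCAT, to which POU2F1 binds, was present in 68.8% of H2A and 77.8% of H2B promoters, in no H1, H3 or H4 promoter, and in 1.77% of all promoters. TATAAA was present in between 50% and 83.3% of the promoters of a class and in 11.5% of all. An E2F-type motif (TTTCGCGC, TTTGGCGC, TTTCCCGC or TTTCGCGG) was present in 31.3% of H2A, 33.3% of H2B and 3.12% of all promoters. The 250 bases before the start are shown for the H2A gene with the deepest fall, for the H2B gene with the deepest fall, and for the H2A gene that rose. Capitals mark these motifs on either strand.
HIST1H2AB (chr6:26033619-26033868, minus strand): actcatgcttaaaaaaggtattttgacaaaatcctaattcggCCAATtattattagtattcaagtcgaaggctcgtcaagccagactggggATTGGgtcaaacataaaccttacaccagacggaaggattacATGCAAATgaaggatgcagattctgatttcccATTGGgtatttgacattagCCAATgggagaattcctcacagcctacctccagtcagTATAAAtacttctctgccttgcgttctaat
HIST1H2BO (chr6:27893175-27893424, plus strand): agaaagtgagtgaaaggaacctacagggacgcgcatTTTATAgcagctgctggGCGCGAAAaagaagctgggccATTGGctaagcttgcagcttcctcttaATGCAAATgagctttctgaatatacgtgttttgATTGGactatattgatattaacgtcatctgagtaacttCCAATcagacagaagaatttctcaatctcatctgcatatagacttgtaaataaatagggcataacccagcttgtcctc
HIST2H2AB (chr1:149887966-149888215, minus strand): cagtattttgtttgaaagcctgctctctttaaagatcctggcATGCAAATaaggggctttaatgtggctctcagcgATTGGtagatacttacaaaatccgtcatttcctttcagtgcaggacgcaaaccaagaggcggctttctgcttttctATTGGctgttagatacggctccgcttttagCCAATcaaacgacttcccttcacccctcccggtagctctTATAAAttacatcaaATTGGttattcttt
HIST1H2AB and HIST2H2AB, which moved in opposite directions, both had the octamer, CCAAT and TATAAA in this window, and neither had the E2F-type motif.

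Only uniquely mapped reads had been counted, and histone genes resemble each other closely. For each gene, the share of its windows of 75 bases, the read length, that occur in no other gene was taken from the GENCODE 29 transcripts. The HIST2 pairs HIST2H2AA3 and HIST2H2AA4, HIST2H3A and HIST2H3C, and HIST2H4A and HIST2H4B had between 0% and 3.79% unique windows, and none of these 6 genes exceeded 15 counts in any library. HIST1H3D and HIST1H2AD, whose exons are shared by 100% and 98.0% with another gene of the same strand, had no more than 1 count in any library. Low counts were also seen away from close copies: 23 coding genes with at least 90% unique windows and no exon overlap were too low to test and had at most 10 counts in any library. Among them were the linker histone genes HIST1H1B and HIST1H1D, with at most 1 count each, and HIST1H3I, HIST1H4F, HIST1H4G and HIST1H4L, which were at 0 in all 17 libraries. The cause of these low counts was not tested. Altogether 13 members were at 0 in all 17 libraries, and 35 had at most 3 counts in each.

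**Figure D1:**
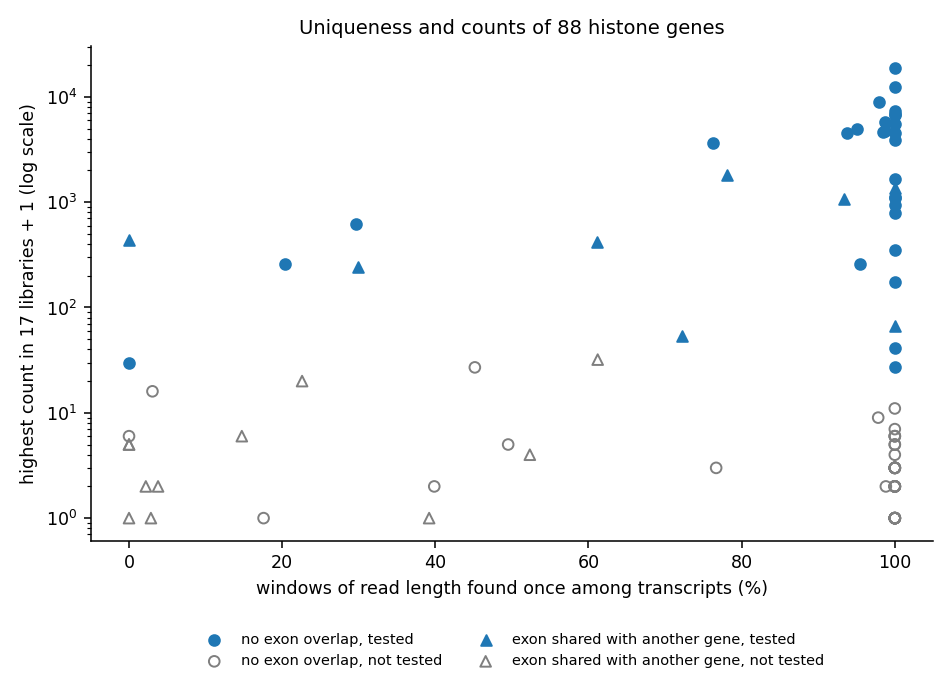
Share of 75-base windows found in no other gene (horizontal axis, %) against the highest count in 17 libraries plus 1 (vertical axis, log scale) for the 88 histone genes. Filled points were tested in P4 treated against vehicle control, and triangles share exon sequence with another gene. Genes with nearly all windows unique appear at both extremes of the count axis, including the 23 unique coding genes with at most 10 counts.

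Per length of the exon model, HIST1H1C was the highest member, with 1443 ± 97.2 RPKM (library-scaled reads per kilobase of exon model) in control cultures (SD, n = 3). It was followed by HIST1H3B with 862 ± 15.1 RPKM, HIST1H4C with 836 ± 79.7 RPKM, HIST1H1E with 809 ± 84.8 RPKM and HIST1H4B with 749 ± 78.6 RPKM, and among these 4 each neighbouring pair differed by less than its spread. HIST1H2BO had 623 ± 25 RPKM, HIST1H2BC 529 ± 43 RPKM and HIST2H2AC 487 ± 20.2 RPKM. These levels depend on which exons a model holds. The deposited counts rest on GENCODE 31, and the lengths used here on release 29.

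The P4 treated cultures were first compared with the vehicle control, a contrast that by the labels may include ethanol as well as P4. Of the 88 members, 36 passed the filter on low counts, 33 of these were lower in P4 treated cultures, 1 was higher, and 2 were not called (edgeR's quasi-likelihood test, adjusted p under 0.05 over 16540 genes). Over all genes tested, 26.5% were lower and 26.6% were higher. The median log2 fold change of the 36 members was -0.92, beside -0.01 over all genes tested. In 34 of the 36, every P4 treated culture was under every vehicle control, as it was in 29.7% of all genes tested. Counting only genes with at least 90% unique windows and no exon overlap, 23 of 24 were lower and the other, HIST1H4C, was not called.

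Summed over all 88 members, the level was 4782, 4568 and 4667 CPM in the vehicle controls and 3357, 2558 and 2891 CPM in the P4 treated cultures. The lowest vehicle control was above the highest P4 treated culture, and P4 treated 1 was the highest of its group. The ratio of the group means was 0.628. By class, the ratio was 0.529 for H3, 0.553 for H2B, 0.634 for H1, 0.685 for H2A and 0.72 for H4, and in each class all P4 treated cultures lay under all vehicle controls. The makeup of the histone reads also differed between the groups. H2B genes held 30.2 ± 0.295% of the summed level in the vehicle controls and 26.6 ± 0.298% after P4, whereas H4 genes held 22.3 ± 0.798% and 25.6 ± 0.7% (SD, n = 3 each). The H4 sum includes HIST1H4C, which was not called and held 27.7% of the H4 level in control cultures. The H4 ratio and share therefore do not describe each H4 gene, and values without HIST1H4C were not computed. The H1 share was 26.1 ± 0.0853% and 26.3 ± 0.504%, a difference smaller than its spread.

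**Figure D2:**
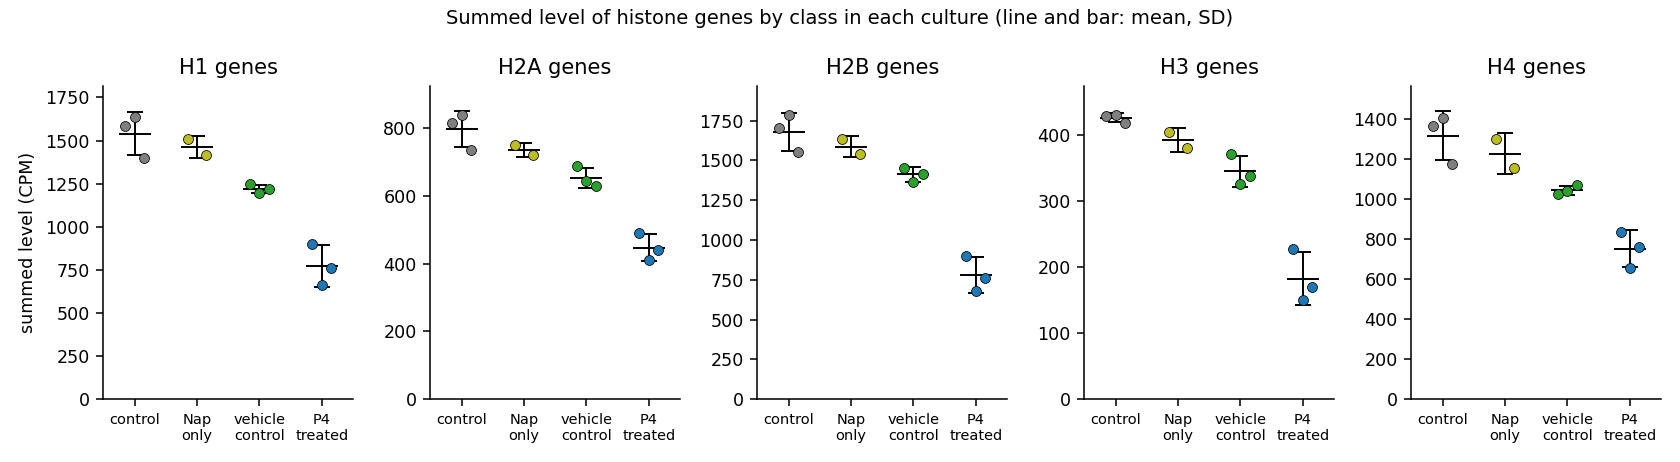
Summed level (CPM, axis from 0) of the genes of each histone class in each culture, with 3 control, 2 Nap only, 3 vehicle control and 3 P4 treated cultures; lines and bars are means and SD. In every class the P4 treated cultures are the lowest, and their H1 sums lie between 660 and 900 CPM against 1198 to 1246 CPM in vehicle control.

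**Figure D3:**
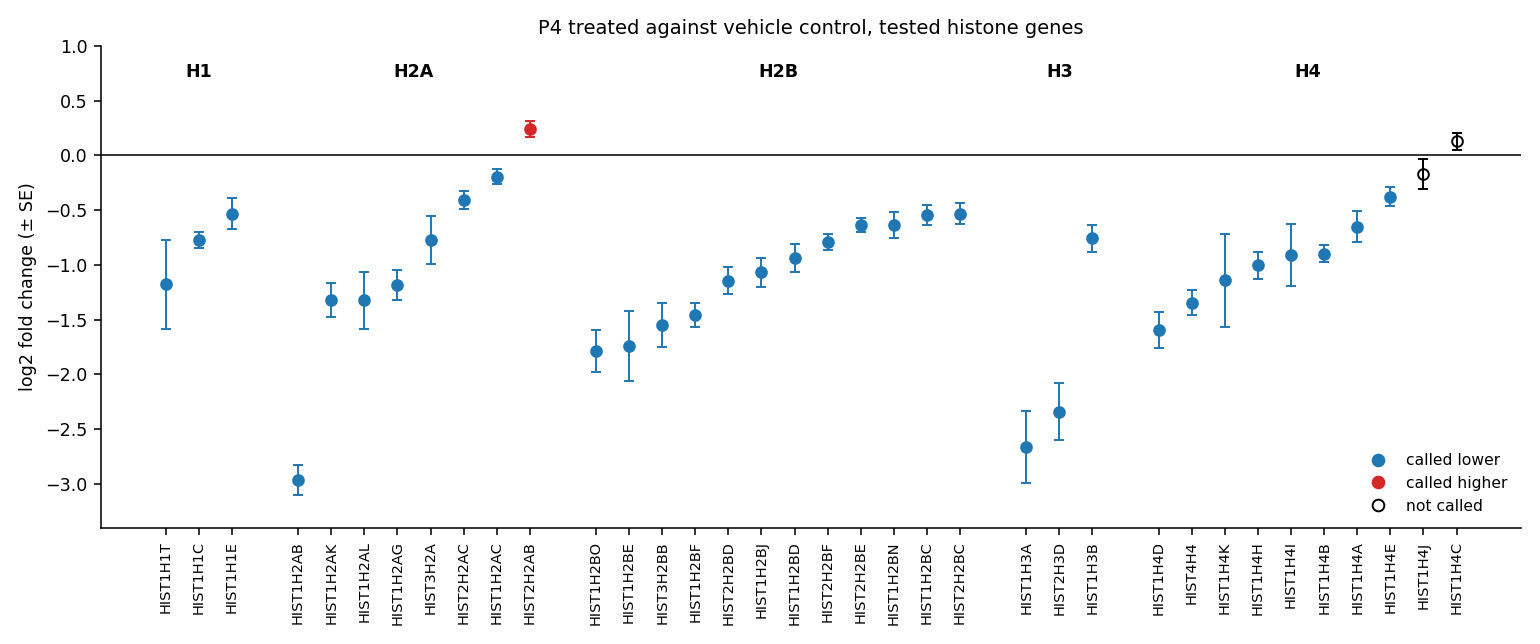
Log2 fold change of P4 treated against vehicle control cultures for the 36 tested members, ordered within each class, with bars for the SE. HIST1H2AB is the lowest at -2.97, HIST2H2AB is called higher at 0.24, and HIST1H4J and HIST1H4C are not called.

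All 3 tested H1 genes fell. HIST1H1C, the most abundant linker histone gene here, had 727, 705 and 679 CPM in the vehicle controls and 446, 374 and 425 CPM in the P4 treated cultures. Its groups were far apart, and its log2 fold change was -0.77 (SE 0.07, adjusted p = 3.85e-06). HIST1H1E, another somatic linker histone gene, had 516, 491 and 538 CPM against 454, 285 and 335 CPM. P4 treated 1 sat nearer to the vehicle controls than the other two, and the log2 fold change of HIST1H1E was -0.53 (SE 0.14, adjusted p = 0.0111). HIST1H1T, the testis-specific H1 gene, was near the limit of detection, with 4, 4 and 9 counts in the P4 treated cultures. Its log2 fold change of -1.18 (SE 0.41, adjusted p = 0.0276) was not called without vehicle control 1, P4 treated 1 or P4 treated 2 (log2 fold changes of -1.10, -1.05 and -0.98), nor by DESeq2, and could not be tested without vehicle control 2. HIST1H1A had at most 4 counts in any library.

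Of the 8 tested H2A genes, 7 fell and 1 rose, with a median log2 fold change of -0.98. HIST1H2AB, a small coding gene of the HIST1 cluster (chr6:26033176-26033568, minus strand), had 46.2, 42.2 and 43 CPM in the vehicle controls and 7.1, 4.65 and 5.16 CPM in the P4 treated cultures. The latter rest on 75, 55 and 68 counts, and no value of one group came near the other. The log2 fold change was -2.97 (SE 0.14, adjusted p = 1.2e-08), or 7.83-fold lower, which ranked 34 from the lowest among the 16540 genes tested. All windows of this gene were unique.

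HIST1H2AK had a log2 fold change of -1.32 (SE 0.16, adjusted p = 2.09e-05), but its whole model lies within an exon of HIST1H2BN on the opposite strand. The strand setting of the counting is not given in the sources used here, so whether the counts separate these 2 genes is not known. HIST1H2AL (-1.32), HIST1H2AG (-1.19) and HIST3H2A (-0.77) also fell. HIST2H2AC, the H2A gene highest per length, went from 175, 168 and 159 CPM to 140, 118 and 122 CPM, a log2 fold change of -0.41 (SE 0.08, adjusted p = 0.00102). HIST1H2AC had the smallest fall called, from 187, 177 and 184 CPM to 170, 149 and 162 CPM, at -0.19 (SE 0.07, adjusted p = 0.0311). That call was lost by DESeq2, without the filter, with all 4 groups in the fit, and on leaving out any of the 6 cultures except P4 treated 1, with log2 fold changes between -0.14 and -0.22.

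HIST2H2AB was the member that rose. It had 53.3, 57.7 and 51.6 CPM in the vehicle controls and 61.8, 66.4 and 65.1 CPM in the P4 treated cultures, which did not overlap. The log2 fold change was 0.24 (SE 0.08, adjusted p = 0.0172). The call was lost under upper-quartile scaling (0.15), without vehicle control 3 (0.19) and without P4 treated 3 (0.25). The control cultures, with 61.8, 71.8 and 53.1 CPM, spanned both groups. The opposite strand of HIST2H2AB carries exon sequence of another gene over 6.87% of its model.

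All 12 tested H2B genes fell, with log2 fold changes between -1.78 and -0.53 and a median of -1.002. HIST1H2BO, a HIST1 coding gene, had the deepest fall. It had 188, 172 and 177 CPM in the vehicle controls and 70.1, 37.4 and 49.7 CPM in the P4 treated cultures, with P4 treated 1 the highest. Its log2 fold change was -1.78 (SE 0.19, adjusted p = 8.74e-05), or 3.44-fold lower. HIST1H2BE had nearly as large a fold change (-1.74, SE 0.32, adjusted p = 0.00063) from 14, 12 and 7 counts in the P4 treated cultures, and 28.2% of its model lies opposite exons of another gene.

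HIST1H2BC, with HIST1H2BO the highest H2B gene per length, had 373, 342 and 380 CPM against 289, 226 and 238 CPM. It fell by 0.55 on the log2 scale (SE 0.09, adjusted p = 0.000302). HIST1H2BJ (-1.07), HIST1H2BD (-0.94) and HIST2H2BE (-0.63), each above 180 CPM in vehicle control, fell as well. HIST2H2BD (-1.14) and HIST2H2BC (-0.53), transcribed pseudogenes, were the only pseudogenes tested. They differed from the coding members in the other groups: HIST2H2BC had 31.9, 31 and 31.1 CPM in the vehicle controls, but 19.1, 21 and 23.6 CPM in the controls and 23.3, 19.2 and 22.7 CPM in the P4 treated cultures. The P4 treated and control values of HIST2H2BC overlapped, and the vehicle controls lay above both.

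All 3 tested H3 genes fell. HIST1H3A had 28.3, 27.6 and 28.8 CPM in the vehicle controls and 8.33, 2.28 and 3.19 CPM in the P4 treated cultures. P4 treated 1 stood well above the other cultures of its group, and the log2 fold change of HIST1H3A moved from -2.66 (SE 0.33, adjusted p = 0.000159) to -3.35 without it. HIST2H3D had 27.2, 23.7 and 24.2 CPM against 8.05, 2.79 and 4.18 CPM, a log2 fold change of -2.34 (SE 0.26, adjusted p = 3.26e-05), with 29.7% of its windows unique. HIST1H3B, which held 83.1% of the summed H3 level in control cultures, had 315, 274 and 283 CPM against 212, 145 and 162 CPM. Its log2 fold change was smaller, at -0.76 (SE 0.13, adjusted p = 0.00049). The remaining 13 H3 members did not pass the filter.

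Of the 10 tested H4 genes, 8 fell and 2 were not called, with a median of -0.90. HIST1H4I (-0.91) and HIST1H4K (-1.14, with 0% of its windows unique) were called on few counts. Both lost the call without vehicle control 1 or P4 treated 2, with HIST1H4I then at -0.74 in each case and HIST1H4K at -0.83 without P4 treated 2, and HIST1H4K also without P4 treated 1. HIST1H4D had the deepest fall, from 16, 14.4 and 14.2 CPM to 6.25, 4.31 and 4.25 CPM, at -1.59 (SE 0.17, adjusted p = 7.72e-06). HIST4H4, the solitary gene on chromosome 12, went from 79, 83 and 75.2 CPM to 33.9, 24.9 and 35.1 CPM, at -1.34 (SE 0.11, adjusted p = 1.27e-06). HIST1H4B, among the most abundant, went from 249, 245 and 255 CPM to 147, 121 and 137 CPM, at -0.90 (SE 0.08, adjusted p = 1.48e-06).

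HIST1H4C, the H4 gene highest per length, had 252, 269 and 282 CPM in the vehicle controls and 323, 266 and 296 CPM in the P4 treated cultures. These groups overlapped, and the log2 fold change was 0.13 (SE 0.08, adjusted p = 0.172), although it was called higher without P4 treated 2 (0.21, adjusted p = 0.0163). HIST1H4J was at -0.17 (SE 0.14, adjusted p = 0.328), with 20.4% of its windows unique. All windows of HIST1H4C were unique, as were those of HIST1H4B, which fell.

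**Figure D4:**
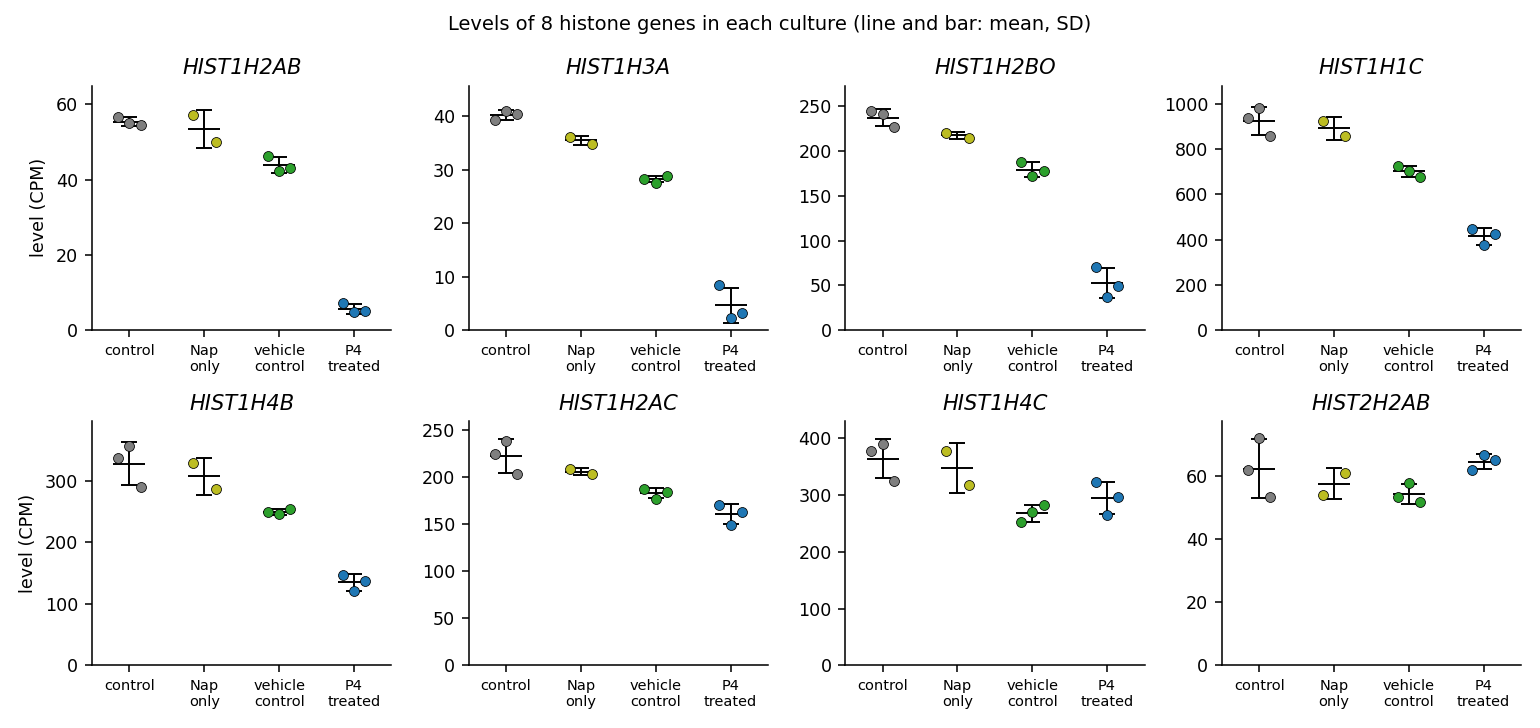
Levels (CPM, axes from 0) of 8 members in each control, Nap only, vehicle control and P4 treated culture, with the mean and SD. HIST1H2AB falls to between 4.65 and 7.1 CPM with P4, whereas for HIST2H2AB the P4 treated cultures lie within the range of the controls and for HIST1H4C they overlap the vehicle controls.

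Several H2A and H2B genes lie head to head and share the sequence between their starts. Of 4 such pairs with both genes tested, HIST1H2AG and HIST1H2BJ, 292 bases apart, had similar log2 fold changes of -1.19 (SE 0.14) and -1.07 (SE 0.13). HIST2H2AC and HIST2H2BE, 323 bases apart, had -0.41 (SE 0.08) and -0.63 (SE 0.06). HIST1H2AC and HIST1H2BC, 219 bases apart, had -0.19 (SE 0.07) and -0.55 (SE 0.09), and HIST3H2A and HIST3H2BB, 234 bases apart, had -0.77 (SE 0.22) and -1.55 (SE 0.20). The difference within a pair was not tested.

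Other features of the genes, which the choice of members did not use, were set beside the fold changes with no test. The median log2 fold change was -0.92 over 22 tested genes with exon models of up to 1000 bases and -0.96 over 14 with longer models, which include polyadenylated forms. It was -0.90 over 19 genes with the stem-loop in their model and -1.14 over 17 without. That split follows the annotated models, and a model that stops early would lack the stem-loop. HIST1H2AB, for example, has a model of 393 bases without it. Of the HIST1 genes 24 of 26 tested fell, with a median of -0.97, and of the HIST2 genes 6 of 7 fell, with a median of -0.63. Among coding H2A and H2B genes, 5 with the E2F-type motif had a median of -1.19 and 13 without it had -0.77, while 13 with the octamer had -1.07 and 5 without it had -0.94.

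The same P4 treated cultures were also compared with the other groups. Against control, 33 of 36 tested members were lower, where 28% of 16620 genes were, and the median was -1.13. Against Nap only, 30 of 37 were lower, where 24.9% of 16987 genes were, and the median was -1.10. No member was called higher by edgeR in either comparison, where 26.8% and 24.8% of all genes were, and by DESeq2 the count was also 0. At an unadjusted p under 0.05 both tools again gave 0. HIST1H2AB was at -3.29 against control and -3.25 against Nap only, and HIST1H3A at -3.15 and -2.98. HIST2H2AB was not called against control (0.06, adjusted p = 0.64) or against Nap only (0.17, adjusted p = 0.17). HIST1H4C was lower against control (-0.29, adjusted p = 0.022) and not called against Nap only (-0.24, adjusted p = 0.081). HIST1H3J, which did not pass the filter against the vehicle control, was at -3.11 against control and between -2.79 and -1.95 against the vehicle control in the fits without 1 culture that kept it, but 44.7% of its exon sequence is shared with another gene. The 3 comparisons share the P4 treated cultures.

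The vehicle control itself was compared with control. Of 37 tested members, 14 were lower and 2 were higher, whereas 10.7% of 16673 genes were lower, 11.9% were higher and 22.6% were called in either direction. The median over members was -0.24, beside -0.01 over all genes tested. The summed histone level was 5895, 6092 and 5277 CPM in the controls and between 4568 and 4782 CPM in the vehicle controls, so the groups did not overlap. HIST1H3A (-0.48, adjusted p = 0.000431), HIST1H2BJ (-0.42), HIST1H4C (-0.41) and HIST1H1C (-0.36) were among those that fell. The 2 that rose were the pseudogenes HIST2H2BD (0.78) and HIST2H2BC (0.59), of which 55.1% and 30.9% of the model lies opposite exons of another gene. The number of members called was 16, but 9 without vehicle control 3, 10 without vehicle control 2, and 9 with all 4 groups in the fit. Calls over all genes were also fewer in these fits, with 811 lower and 1097 higher of 17198 without vehicle control 3. Without vehicle control 2, 871 were lower and 1167 higher of 17033, and with all 4 groups 1423 and 1687 of 17914.

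In the fit without a replicate block, the Nap only cultures did not differ detectably from control. With edgeR, 0 of 38 tested members were called, as were 0% of 17166 genes, and at an unadjusted p under 0.05 the counts were 0 members and 217 genes. DESeq2 called 0 members and 1 gene, and 1 member had an unadjusted p under 0.05. With the replicate number as a block, edgeR called 0 members, but 17 of 38 had an unadjusted p under 0.05. The Nap only group has 2 cultures. The median over members was -0.10, and their log2 fold changes lay between -0.53 and 0.24.

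Genes of the processes that accompany histone synthesis were read from lists, again for P4 treated against vehicle control. Each count reads against the 26.5% of all genes that were lower and the 26.6% that were higher. Of 35 DNA replication genes, 29 fell, 1 rose and 5 were not called, with a median of -0.59. UHRF1, which recruits maintenance methylation to replicated DNA, went from 37.7 ± 4.49 to 11.2 ± 1.12 CPM (SD, n = 3 each; log2 fold change -1.78, SE 0.12, adjusted p = 2.12e-07). FEN1, the flap endonuclease of Okazaki fragment processing, went from 81.8 ± 1.72 to 32.6 ± 2.32 CPM (-1.33, SE 0.08, adjusted p = 5.69e-08). PRIM1, a primase subunit, was the gene that rose (0.41, SE 0.10, adjusted p = 0.00555). Of 22 genes of histone chaperones and deposition, 15 fell, 0 rose and 7 were not called, led by the H3-H4 chaperone ASF1B (-1.29) and the nucleosome assembly gene NAP1L4 (-0.78). Of 20 regulators of the passage from G1 to S phase, 9 fell, 5 rose and 6 were not called, and the number that rose is near the share over all genes. Cyclins CCND1 (-1.16) and CCNA2 (-0.83) fell, while the kinase inhibitor CDKN1A went from 82.4 ± 4.3 to 225 ± 22.2 CPM (1.44, SE 0.08, adjusted p = 4.64e-08) and CDKN1B, another inhibitor, rose as well (1.04).

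Of 26 genes of histone mRNA transcription, 3′ processing and decay, 9 fell, 4 rose and 13 were not called, with a median of -0.13. These counts are not far from the shares over all genes and are no result about the list. The stem-loop binding protein gene SLBP, named here after its value was seen, was slightly higher, at 61.8 ± 0.834 CPM in the vehicle controls and 71.9 ± 2.6 CPM after P4 (0.21, SE 0.07, adjusted p = 0.0199). CPSF2 (0.40), of the cleavage and polyadenylation complex, and ZNF473 (0.27), a histone pre-mRNA processing factor, rose, and WDR33 (-0.61) and SRRT (-0.53), which act in polyadenylation and cap-linked processing, fell. Of 11 tested variant and replacement histone genes, 4 fell, 3 rose and 4 were not called. These counts too are not far from the shares over all genes and are no result about variant histones. H2AFX (-1.25), which marks DNA breaks when phosphorylated, and H2AFV (-1.08) fell, whereas the linker histone genes H1F0 (0.78) and H1FX (0.56) rose, with H1F0 going from 110 ± 12.9 to 191 ± 43.6 CPM. Of 10 tested RNAs of other kinds without a poly(A) tail, 0 fell and 3 rose, among them SCARNA7 (0.75, SE 0.06, adjusted p = 1.44e-06) and RN7SL1 (0.36). The number that rose is near the share over all genes. The direction changed with the comparison: against control, 2 of 10 fell and 1 rose, with a median of -0.28. Against Nap only, 1 of 9 fell and 2 rose, with a median of -0.06. Of the epithelial markers, 5 fell, including CLDN4 (-1.42) and PAX8 (-0.68), and 2 rose, KRT7 (1.08) and CDH1 (0.24), and all 4 tested stromal markers fell, including COL1A2 (-1.67) and THY1 (-2.05).

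**Figure D5:**
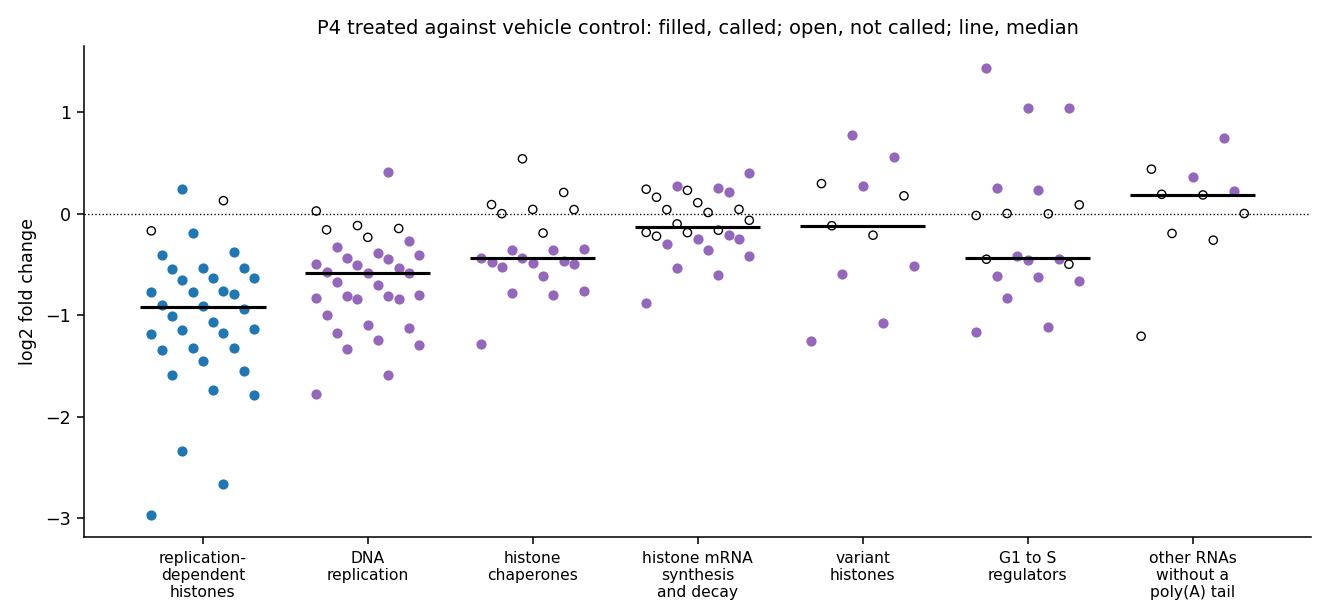
Log2 fold change of P4 treated against vehicle control cultures (vertical axis) for the 36 tested histone genes and 6 other lists, 1 point per gene, filled where called. The line is the median, which is -0.92 for the histone genes, -0.59 for DNA replication, -0.44 for histone chaperones, -0.12 for variant histones and 0.19 for other RNAs without a poly(A) tail.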

How the data were processed

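Total RNA of Ishikawa cells was made into stranded libraries and read from one end over 75 bp. The authors used Cutadapt for trimming, Subread for alignment (uniquely mapped reads only) and featureCounts for counting, and deposited raw counts per GENCODE 31 gene. Versions and the strand setting are not given in the sources used here. Names, positions and exon lengths came from GENCODE 29, and 2 members with changed identifiers (HIST1H3B and HIST1H3C) were matched through RefSeq synonyms. Promoters were matched by name to RefSeq genes that overlap the member on its strand.

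Counts were tested with edgeR 4.0.16 in R 4.3.3 (TMM scaling, filterByExpr with a minimum count of 10, robust quasi-likelihood fits of the groups compared, Benjamini-Hochberg adjustment over all genes tested), and called at an adjusted p under 0.05. The code was checked on counts simulated with the same dispersion for all genes and few genes changed. That setting is simpler than these data, so the check speaks only for the code. CPM values used TMM factors over all 17 libraries. A list is described by its counts and median, with no test of the list. The 11 assigned libraries held between 4999521 and 19704493 counts, which sets the precision of low genes. Alternatives were DESeq2 1.42.0, RLE and upper-quartile scaling, the replicate number as a block, a fit of all 4 groups together, no mitochondrial genes, a stricter filter (10 counts or more in each sample) or none, each culture left out in turn, and other length limits. Motif and window searches used Python 3.11.15.

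The members and lists were chosen with earlier results of these data known. The text names all HIST1H1 genes, in each other class the 2 genes highest per length over the 11 assigned libraries, the 2 with the lowest and the 2 with the highest log2 fold change, members called against their class, the 2 genes of smallest adjusted p in each direction of a list, and genes at the extremes of unique windows. Other genes are named as further members of their class or as markers.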

Additional observations from a re-analysis of the deposited data

Results flagged for a closer look

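Of the libraries that entered no comparison, 1 had H2A and H3 sums above those of every control culture. It was flagged from the class sums of all the libraries that entered no comparison. In the third library whose count column is named PSAT1 and whose title is PSAT1_P4, the H2A genes summed to 866 CPM. The controls had at most 837 CPM (SD 53.2 CPM, n = 3). The H3 genes of that library summed to 457.7 CPM, where the controls had at most 431 CPM (SD 6.86 CPM, n = 3). With the title and the column in conflict, no condition was assigned to this library, and the difference was not tested. Its sum over all histone genes, 5836 CPM, lay within the range of the controls (5277 to 6092 CPM), as did its H1, H2B and H4 sums.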

How the results depend on the processing

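For P4 treated against vehicle control, the number of members called higher was 1, but 0 with upper-quartile scaling, which moved the median of all genes from -0.01 to -0.10, and between 0 and 2 on leaving out a culture (0 without vehicle control 3 or P4 treated 3, and 2 without P4 treated 2). The number called lower lay between 30 and 33. The H2A median of -0.98 was -1.23 with DESeq2, -1.06 with upper-quartile scaling, -1.30 with no filter, and between -1.07 and -0.81 on leaving out a culture. The H2B median was -1.33 with DESeq2 and -1.27 with no filter, and the H3 median was -1.57 with DESeq2, all over more genes (22 H2B and 12 H3 genes). The difference between short and long models reversed from 0.04 to -0.10 with a limit of 800 bases; the cause was not tested. For vehicle control against control, 16 members were called, but 9 with all 4 groups in the fit and between 9 and 22 on leaving out a culture. Over all genes, 1787 were lower and 1976 higher of 16673, and 1423 and 1687 of 17914 with all 4 groups. Without vehicle control 3, where 9 members were called, 811 and 1097 of 17198 were. Without control 3, where 22 members were called, 1517 and 1605 of 17217 were. For Nap only against control the count was 0 under every alternative run. Of 277 alternative values for 20 named members, 261 kept their call, 15 lost it and 1 gained it. Most of these 20 were named for their fold change in P4 treated against vehicle control, so these counts describe the named members only.

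Same-numbered cultures deviated together with correlations between -0.046 and 0.042 for P4 treated against vehicle control, so the numbers were not taken to pair them. With the number as a block, 33 members were lower and 1 was higher, as without it. For Nap only against control, with 2 pairs (0.256 and 0.324), the block gave 0 members called. With the block, 17 of 38 members had an unadjusted p under 0.05, against 0 without it. Over all 17166 genes, 1208 had an unadjusted p under 0.05 with the block, against 217 without it. The block fit called 38 genes lower and 4 higher. The 52 members that did not pass the filter against vehicle control had at most 31 counts in any library. HIST1H3J, the highest of them, passed in 4 of the fits without 1 culture.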

Other observations

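The 6 libraries whose titles and count columns disagree are given by column name, as values. The summed histone level was 3249, 2753 and 2534 CPM in the columns named PSAT1_P4 and 5476, 5136 and 5836 CPM in those named PSAT1. HIST1H2AB had 5.89, 5.07 and 3.62 CPM in the former and 50.8, 53.6 and 65.1 CPM in the latter, and HIST1H3A had 4.02, 3.53 and 2.48 CPM and 35.2, 33.2 and 47.2 CPM. HIST1H4C had 314, 273 and 271 CPM and 348, 302 and 323 CPM, and HIST2H2AB had 65.3, 61.6 and 55.1 CPM and 58.8, 64.2 and 65.1 CPM. For HIST2H2AB and HIST1H4C the values of the columns overlapped, whereas for HIST1H2AB and HIST1H3A they did not. These genes were chosen by their fold changes in P4 treated against vehicle control. Overlap between the columns was not counted over all genes, so no result is drawn from it.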
